A study of Homo sapiens with 4 samples.

Results

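The histone deacetylase genes were studied here as 10 named members, HDAC1, HDAC2, HDAC3, HDAC4, HDAC5, HDAC6, HDAC7, HDAC8, HDAC9 and HDAC11. They were chosen by name, as all entries of the deposited gene table whose gene name equals a member, and all 10 were found among 40877 names of a single gene. The cells were H1299 (human non-small cell lung cancer) and HCT116 (human colorectal cancer), each given the solvent DMSO or the compounds DAC and SB939 together. DAC (decitabine) inhibits DNA methyltransferases and becomes active when it is built into new DNA. SB939 (pracinostat) is a hydroxamate inhibitor of zinc-dependent histone deacetylases, the family of enzymes that the 10 genes encode. How far it inhibits each of these enzymes was not measured here. Cells at passage 5 to 10 received 500 nM DAC over 72 h and 500 nM SB939 over 18 h, in medium renewed every 24 h. RNA was read from single cells with the 5′ chemistry of 10x Genomics, with 4 libraries, 1 per line and treatment. The treated libraries are called DAC+SB. With no replicate library, no test was made and no p-value was computed. Neither compound was given alone in these libraries, so their effects cannot be told apart.

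Histone deacetylases remove acetyl groups from lysines of histones and other proteins, and on chromatin this usually goes with lower transcription. Class I enzymes (HDAC1, HDAC2, HDAC3 and HDAC8) are mostly nuclear. HDAC1 and HDAC2 work as paired catalytic subunits of the Sin3, NuRD, CoREST and MiDAC complexes, and HDAC3 works in the NCoR/SMRT complex. Class IIa enzymes (HDAC4, HDAC5, HDAC7 and HDAC9) have weak catalytic activity of their own, bind MEF2 transcription factors and move between nucleus and cytoplasm under the control of 14-3-3 proteins. The class IIb enzyme HDAC6 is a cytoplasmic tubulin deacetylase. HDAC11 is the only class IV enzyme. Class II is the sum of classes IIa and IIb here.

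The 5′ chemistry places reads near transcription start sites, and the DNA methyltransferases that DAC inhibits methylate cytosine in CG pairs. For that reason the DNA just before the starts of the members with the most extreme ratios is shown, together with HDAC1 as a class I member. Methylation was not measured. Start sites with the 250 bases before them came from RefSeq on GRCh38.p14, which held 19 such windows for 9 of the 10 members and none for HDAC5. Below, each sequence is written 5′ to 3′ on the gene's strand, with every CG in capitals. Only the stretch free of annotated exons is printed.
HDAC7, minus strand, chr12:47819981-47820153: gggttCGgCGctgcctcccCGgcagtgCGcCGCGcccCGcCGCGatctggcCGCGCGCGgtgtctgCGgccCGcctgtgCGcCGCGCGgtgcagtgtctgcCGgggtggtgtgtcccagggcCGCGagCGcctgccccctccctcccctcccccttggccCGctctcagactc
HDAC1, plus strand, chr1:32291833-32292082: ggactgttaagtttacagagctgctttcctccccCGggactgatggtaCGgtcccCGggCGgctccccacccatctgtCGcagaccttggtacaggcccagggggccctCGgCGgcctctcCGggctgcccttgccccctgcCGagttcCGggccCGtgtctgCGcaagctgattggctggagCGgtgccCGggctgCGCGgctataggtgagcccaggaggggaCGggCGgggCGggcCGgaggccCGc
HDAC9 first start, plus strand, chr7:18086575-18086824: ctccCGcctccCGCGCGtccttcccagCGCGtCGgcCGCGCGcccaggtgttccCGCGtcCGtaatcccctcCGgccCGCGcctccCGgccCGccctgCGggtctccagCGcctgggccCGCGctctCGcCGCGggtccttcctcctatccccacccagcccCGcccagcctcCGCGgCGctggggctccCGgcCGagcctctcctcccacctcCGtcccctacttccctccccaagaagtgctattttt
HDAC9 downstream start, plus strand, chr7:18495460-18495709: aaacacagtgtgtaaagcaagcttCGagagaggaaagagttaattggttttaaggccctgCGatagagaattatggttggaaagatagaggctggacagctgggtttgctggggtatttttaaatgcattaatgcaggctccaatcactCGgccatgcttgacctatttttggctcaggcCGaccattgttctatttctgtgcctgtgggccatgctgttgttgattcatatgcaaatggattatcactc
The median window among 35116 RefSeq windows held 11 CG pairs, and 93.9% of windows held at least 1 (CG reads the same on both strands). The HDAC7 window held 28, of which 24 lie in the printed stretch, and 84.1% of windows held fewer. This window lies inside the annotated HDAC7 gene, whose 5′ end on the minus strand is at 47833132. Its printed stretch ends 78 bases before the RefSeq start. The HDAC1 window held 21, with 69.8% of windows below it. The HDAC9 windows differed among themselves, with 32 CG pairs before the first start (90.5% of windows held fewer) and 4, 4, 4 and 0 before the 4 downstream starts. The downstream start shown has 4, and 29.3% of windows held fewer. The deposited counts do not tie a gene's features to these starts.

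The 4 libraries held 15289 cells and between 38927267 and 64524196 summed gene and transposable element (TE) counts each. The treated HCT116 library stood apart, with a median of 8449 counts per cell against 15785 to 17370 in the others and 1086 of 4327 cells above 25% mitochondrial counts. TE counts made up 0.199% and 0.319% of the DMSO libraries and 3.09% and 5.56% of the treated libraries of H1299 and HCT116. Mesenchymal markers were higher in H1299 and epithelial markers higher in HCT116, with either treatment. The 10 mesenchymal genes summed to 2688 and 1441 CPM in H1299 (DMSO first) against 219 and 347 in HCT116. There CDH2, COL5A1 and TWIST1 were at 0 with DMSO, and all 10 genes were counted with DAC+SB. The 10 epithelial genes summed to 137 and 89.2 CPM in HCT116 against 1.19 and 38.0 in H1299. In H1299 CDH1 was at 0 with DMSO but counted with DAC+SB, and GPX2 and KRT20 were at 0 in both libraries. Within HCT116 the mesenchymal sum was the larger one in both libraries, so each list was compared between lines only. CPM are counts per 1000000 gene plus TE counts of the library. Of 15158 distinct cell barcodes, 131 were found in more than 1 library.

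With the combined treatment the clearest difference among the members was in HDAC7, which was 2.90-fold lower in H1299 and 7.43-fold lower in HCT116. HDAC9 was lower in H1299 and higher in HCT116. The 4 class I genes lay between log2 ratios of -0.26 and 0.18 in H1299 and were all lower in HCT116, by 1.31-fold to 1.69-fold. Scaled by the trimmed mean of M-values (TMM), an alternative to the library total, their HCT116 log2 ratios lay between -0.51 and -0.14. HDAC11, summed over its entries in the gene table, was higher in both lines. The values below are CPM of each library with 95% Poisson intervals, and log2 ratios of DAC+SB over DMSO with 95% intervals. All intervals cover counting error only. They take each count as a separate molecule, and the sources do not say whether UMIs (molecular barcodes) were used in counting. If reads of the same molecule were counted more than once, the intervals are too narrow. Levels were compared between libraries for each gene and not between genes.

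**Figure D1:**
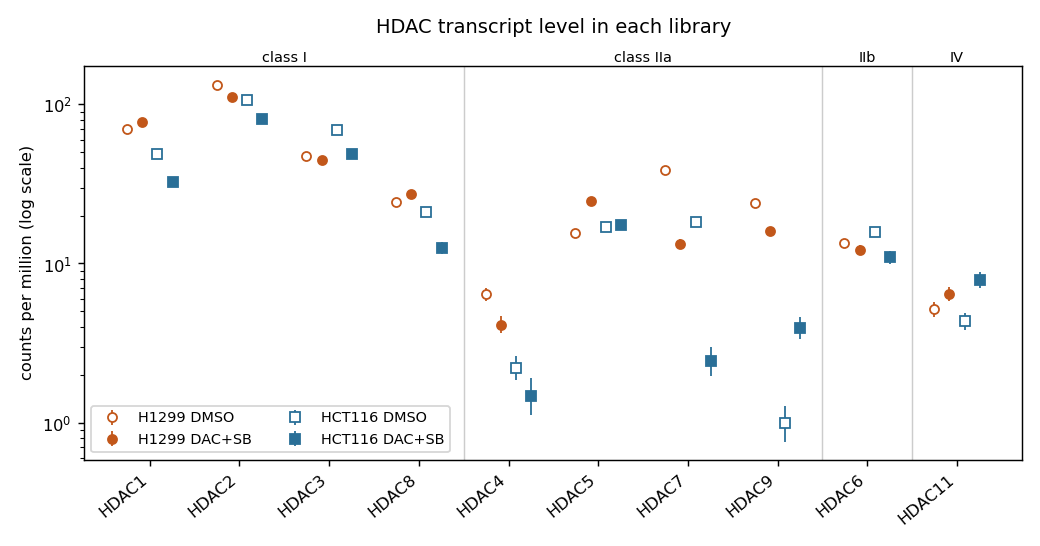
Level of each histone deacetylase gene in the 4 libraries, in CPM on a log axis, with genes grouped by class; open symbols are DMSO, filled symbols DAC+SB, orange circles H1299 and blue squares HCT116, and bars are 95% Poisson intervals. The treated HCT116 library lies lowest for HDAC1, HDAC2, HDAC8, HDAC4, HDAC7 and HDAC6. HDAC7 lies lower with DAC+SB in both lines, and HDAC9 lies near 1 CPM in HCT116 DMSO.

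HDAC1 (chromosome 1, 32292086 to 32333635, plus strand), a deacetylase of the Sin3, NuRD and CoREST complexes, had 4483 and 4843 counts in the DMSO and DAC+SB libraries of H1299 and 3039 and 1260 in those of HCT116, the order kept below. These are 69.5 (67.5 to 71.5), 77.6 (75.4 to 79.8), 48.5 (46.8 to 50.3) and 32.4 (30.6 to 34.2) CPM. Both H1299 libraries were above both HCT116 libraries, and no 2 intervals overlapped. The log2 ratio was 0.16 (0.10 to 0.22) in H1299 and -0.58 (-0.68 to -0.49) in HCT116, so the treated library was higher in one line and lower in the other.

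HDAC2 (chromosome 6, 113933028 to 114011308, minus strand), the close relative of HDAC1 in the same complexes, had 8528, 6906, 6652 and 3161 counts in the same order of libraries. Its level was 132 (129 to 135) CPM in H1299 DMSO, 111 (108 to 113) in H1299 DAC+SB, 106 (104 to 109) in HCT116 DMSO and 81.2 (78.4 to 84.1) in treated HCT116. The treated library was the lower one in both lines, and the intervals of H1299 DAC+SB and HCT116 DMSO overlapped. Its log2 ratios were -0.26 (-0.30 to -0.21) and -0.39 (-0.45 to -0.33), H1299 first.

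HDAC3 (chromosome 5, 141620876 to 141636870, minus strand), the catalytic subunit of the NCoR/SMRT complex, had 3066, 2809, 4323 and 1905 counts. Its level was 47.5 (45.8 to 49.2) and 45.0 (43.3 to 46.7) CPM in H1299, DMSO first, and 69.0 (67.0 to 71.1) and 48.9 (46.8 to 51.2) in HCT116. HCT116 DMSO stood above the other 3 libraries, whose intervals overlapped with their neighbours. Its log2 ratio was -0.08 (-0.15 to -0.00) for H1299 and -0.50 (-0.57 to -0.42) for HCT116.

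HDAC8 (chromosome X, 72329516 to 72573199, minus strand), a class I enzyme that deacetylates the cohesin subunit SMC3, had 1566, 1712, 1326 and 487 counts. Its level was 24.3 (23.1 to 25.5) and 27.4 (26.1 to 28.8) CPM in H1299 and 21.2 (20.0 to 22.3) and 12.5 (11.4 to 13.7) in HCT116, with no 2 intervals overlapping. HDAC8 was thus higher with treatment in H1299, with a log2 ratio of 0.18 (0.08 to 0.28), and lower in HCT116, at -0.76 (-0.91 to -0.61), the lowest class I ratio.

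Among class IIa genes, HDAC7 (chromosome 12, 47782722 to 47833132, minus strand), known for its roles in endothelium and thymocytes, had 2494, 832, 1136 and 95 counts. These are 38.7 (37.1 to 40.2), 13.3 (12.4 to 14.3), 18.1 (17.1 to 19.2) and 2.44 (1.97 to 2.98) CPM. The treated library was far below its own DMSO library in both lines, and no 2 intervals overlapped. The log2 ratio was -1.54 (-1.65 to -1.42) in H1299 and -2.89 (-3.21 to -2.59) in HCT116. Of all genes compared, 1.42% had a lower ratio in H1299 and 0.665% in HCT116. Under the alternative scalings and choices of cells the ratio stayed between -1.58 and -1.23 in H1299 and between -2.90 and -2.65 in HCT116. Taken apart in HCT116, the unnumbered HDAC7 feature was at -2.98 and the numbered one at -2.39.

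HDAC9 (chromosome 7, 18086949 to 19002416, plus strand), a class IIa gene best known from muscle and vascular tissue, had 1556, 995, 62 and 153 counts. Its level was 24.1 (22.9 to 25.3) and 15.9 (15.0 to 17.0) CPM in H1299 but 0.990 (0.759 to 1.27) and 3.93 (3.33 to 4.60) in HCT116. All H1299 values lay above all HCT116 values, and the treated library was lower in one line and higher in the other. The log2 ratio was -0.60 (-0.71 to -0.48) in H1299 and 1.99 (1.55 to 2.44) in HCT116, a ratio of 3.97 (2.94 to 5.42). Of the 153 treated HCT116 counts, 43 and 48 lay in 2 numbered features that were not listed in HCT116 DMSO. Over the features listed in both HCT116 libraries, HDAC9 had 62 counts with each treatment, a log2 ratio of 0.69 (0.15 to 1.22).

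HDAC4 (chromosome 2, 239048168 to 239401654, minus strand), the class IIa enzyme known for restraining chondrocyte growth, had 413, 258, 139 and 57 counts. Its level was 6.40 (5.80 to 7.05) and 4.13 (3.64 to 4.67) CPM in H1299 and 2.22 (1.87 to 2.62) and 1.46 (1.11 to 1.90) in HCT116, where the intervals overlapped. The H1299 log2 ratio of -0.63 (-0.86 to -0.40) was close to the HCT116 one of -0.60 (-1.07 to -0.15). In HCT116, 35 of the 139 DMSO counts lay in a numbered feature not listed with DAC+SB, and without it the ratio was -0.18 (-0.67 to 0.30).

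HDAC5 (chromosome 17, 44076746 to 44123702, minus strand), a class IIa repressor of MEF2 targets in heart and muscle, had 1000, 1540, 1065 and 681 counts. Its level was 15.5 (14.6 to 16.5) and 24.7 (23.5 to 25.9) CPM in H1299 and 17.0 (16.0 to 18.1) and 17.5 (16.2 to 18.9) in HCT116. Treated H1299 stood above the other 3 libraries, whose intervals overlapped. The H1299 log2 ratio was 0.67 (0.55 to 0.79), and the HCT116 one, 0.04 (-0.10 to 0.18), lay within counting error of 0. With TMM scaling the HCT116 ratio was 0.29, outside that interval, and among cells of 5000 to 15000 counts it was 0.20. The main HCT116 value joined a numbered feature of 341 counts listed with DMSO alone to an unnumbered feature with 724 and 681 counts, whose log2 ratio was 0.60 (0.44 to 0.75).

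HDAC6 (chromosome X, 48801377 to 48824982, plus strand), the class IIb enzyme that deacetylates tubulin, had 862, 763, 994 and 425 counts. Its level was 13.4 (12.5 to 14.3) and 12.2 (11.4 to 13.1) CPM in H1299 and 15.9 (14.9 to 16.9) and 10.9 (9.90 to 12.01) in HCT116. The log2 ratio was -0.13 (-0.27 to 0.01) in H1299, within counting error of 0, and -0.54 (-0.71 to -0.37) in HCT116. The class IV gene HDAC11 (chromosome 3, 13479724 to 13506424, plus strand), whose enzyme removes long fatty acyl groups, had 332, 401, 271 and 307 counts. Its level was 5.15 (4.61 to 5.73) and 6.42 (5.81 to 7.08) CPM in H1299 and 4.33 (3.83 to 4.87) and 7.89 (7.03 to 8.82) in HCT116. Both treated libraries lay above both DMSO libraries, with log2 ratios of 0.32 (0.11 to 0.53) and 0.87 (0.63 to 1.11). In H1299 the unnumbered HDAC11 feature was at 0.06 (-0.18 to 0.30), within counting error of 0. The numbered one went from 45 to 112 counts, at 1.36 (0.85 to 1.90). Gene positions are those of GENCODE v29 on GRCh38, matched by symbol. In that annotation HDAC2, HDAC3, HDAC4, HDAC7 and HDAC11 share exonic bases with a gene on the opposite strand and HDAC8 with a gene on its own strand. The sources used here do not say whether counting used strand, so their counts can include reads of those genes.

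**Figure D2:**
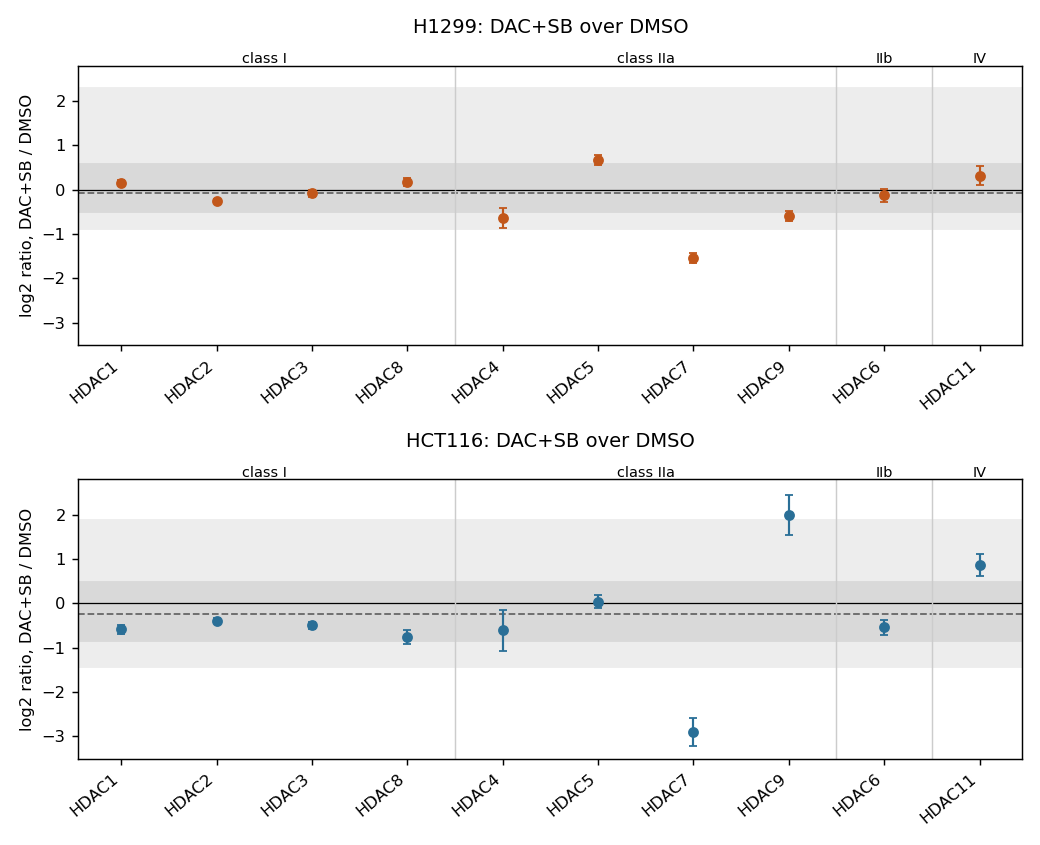
Log2 ratio of DAC+SB over DMSO for each histone deacetylase gene in H1299 (upper panel) and HCT116 (lower panel), with 95% intervals for counting error; the dashed line is the median of all genes compared and the shaded bands are their middle 50% (dark) and 80% (light). HDAC7 lies below the light band in both lines at -1.54 and -2.89, and HDAC9 lies above it in HCT116 at 1.99.

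Read against all genes, few members stood out by size of ratio. In H1299 none of the 10 members was at least 2-fold higher with DAC+SB and 1 (HDAC7) was at least 2-fold lower, among 14610 genes (a minimum of 100 counts applied to the higher library), of which 18.3% were called higher and 7.34% lower. In HCT116 1 member (HDAC9) was higher and 1 (HDAC7) lower by this rule, among 13539 genes of which 16.2% were higher and 20.0% lower. Under TMM scaling HDAC11 also passed 2-fold in HCT116, where 19.6% of genes were then higher. Over the features listed in both HCT116 libraries HDAC9 did not pass it. At 4-fold, 0 members were higher (9.63% of genes) and 1, HDAC7, was lower (3.69%) in HCT116. Ratios of any size were below 1 for 6 members in H1299 (54.1% of genes) and 7 in HCT116 (59.4%), and above 1 for 4 (45.9%) and 3 (40.6%). The median log2 ratio of the members was -0.10 in H1299 and -0.52 in HCT116, beside -0.07 and -0.23 over all genes. TMM scaling moved the all-gene median in HCT116 from -0.23 to 0.02 and left the same numbers of members below and above 0 in both lines.

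Class I and class II were then compared as sums of their members' counts, which weight each gene by its counts. Class I summed to 273 (269 to 277) CPM with DMSO and 261 (257 to 265) with DAC+SB in H1299, and to 245 (241 to 249) and 175 (171 to 179) in HCT116. Class II summed to 98.0 (95.6 to 100.5) and 70.3 (68.2 to 72.4) CPM in H1299 and to 54.2 (52.4 to 56.1) and 36.2 (34.4 to 38.2) in HCT116. Both sums were lower in the treated library of both lines, by little for class I in H1299, where the direction depended on the members summed.

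In H1299 the class I log2 ratio was -0.07 (-0.10 to -0.04) and the class II ratio -0.48 (-0.54 to -0.42), a difference of 0.41 (0.35 to 0.47). The H1299 class I ratio was -0.0023 with TMM and 0.04 as the median of members. Among cells of 5000 to 15000 counts the H1299 class II ratio was -0.24 and the difference 0.19. In HCT116 the ratios were -0.48 (-0.53 to -0.44) and -0.58 (-0.67 to -0.49), and their difference of 0.10 (-0.00 to 0.19) lay within counting error of 0. With TMM the HCT116 ratios were -0.24 for class I and -0.33 for class II. HDAC7 set much of the class II value. Without HDAC7, a comparison chosen after its value was seen, the class II ratio was -0.06 (-0.13 to 0.01) in H1299 and, for HCT116, -0.09 (-0.19 to 0.00). The class difference was then -0.01 (-0.08 to 0.06) in H1299 and -0.39 (-0.50 to -0.28) in HCT116. In H1299 the class I sum also depended on HDAC2, since without it the other class I genes gave 0.09. Within class I the ratios spanned -0.26 to 0.18 in H1299 and -0.76 to -0.39 in HCT116, whereas within class II they spanned -1.54 to 0.67 and -2.89 to 1.99.

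The lines also differed before treatment. With DMSO, HDAC9 was 24.4-fold (18.9 to 31.9) higher in H1299 than in HCT116, HDAC4 2.88-fold (2.37 to 3.52) and HDAC7 2.13-fold (1.99 to 2.29). These were the 3 members at least 2-fold higher in H1299, where 20.5% of 13796 genes were, and 0 were at least 2-fold lower, where 15.2% of genes were. HDAC3 was 1.45-fold higher in HCT116, and the other 6 members differed between the lines by 1.43-fold at most, the HDAC1 value. With DAC+SB, 5 members were at least 2-fold higher in H1299 (25.4% of 14875 genes) and 0 at least 2-fold lower (12.1%). These were HDAC7 at 5.46-fold (4.41 to 6.83), HDAC9 at 4.06-fold (3.42 to 4.84), HDAC4 at 2.82-fold (2.11 to 3.83), HDAC1 at 2.40-fold (2.25 to 2.55) and HDAC8 at 2.19-fold (1.98 to 2.43). The HDAC9 value depends on numbered features that were not listed in every library. With DAC+SB the unnumbered HDAC9 feature was at 14.1 CPM in H1299 and 1.59 in HCT116. With DMSO it was at 21.5 and 0.990. The unnumbered HDAC7 feature was at 13.3 and 2.03 CPM with DAC+SB.

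The log2 ratio of DAC+SB over DMSO was higher in H1299 than in HCT116 for 7 of 10 members, beyond counting error in each, as it was for 46.4% of the 12644 genes that reached the minimum of 100 counts in both lines. Without regard to counting error the share was 59.4% of these genes. With TMM it was 6 members and 49.0% of genes, since HDAC2 was then at -0.19 in H1299 and -0.14 in HCT116. The difference was 1.36 (1.03 to 1.68) for HDAC7, 0.94 (0.76 to 1.11) for HDAC8, 0.74 (0.63 to 0.85) for HDAC1 and between 0.13 and 0.63 for HDAC2, HDAC3, HDAC5 and HDAC6. It was -2.59 (-3.03 to -2.15) for HDAC9 and -0.55 (-0.86 to -0.23) for HDAC11. The HDAC4 difference was -0.03 (-0.53 to 0.47), within counting error of 0. Over features listed in both libraries of a line, 3 of these differences moved. The HDAC9 difference was then -1.28 (-1.80 to -0.76). HDAC5 was at 0.67 in H1299 and 0.60 in HCT116, a difference of 0.07 (-0.12 to 0.26) that lay within counting error of 0. HDAC4 was at -0.63 and -0.18, a difference of -0.45 (-0.97 to 0.07). Ratios of opposite sign in the lines, beyond counting error in each, were found for 3 members (HDAC1, HDAC8 and HDAC9) and for 1768 (13.98%) of the 12644 genes. The treated HCT116 library also had the lowest depth per cell and the largest mitochondrial share. Among cells of 5000 to 15000 counts, the HCT116 ratios were -0.64 for HDAC1, -0.74 for HDAC8, -2.84 for HDAC7 and 2.23 for HDAC9, beside 0.26, 0.22, -1.23 and -0.42 in H1299. Median counts in those cells were still 12175 with DMSO and 9405 with DAC+SB in HCT116. Without cells over 25% mitochondrial counts, the HCT116 ratios were -0.60 for HDAC1, -0.75 for HDAC8, -2.90 for HDAC7 and 1.86 for HDAC9.

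In the deposited table a gene can have an unnumbered feature and features numbered after its name. The sources used here do not give their meaning. Numbered features were listed from 10 counts, and an unlisted one is not known to be 0. Numbered features held 61.9% and 65.3% of gene counts in H1299 (DMSO first) and 68.2% and 73.3% in HCT116. All members except HDAC6 had a numbered feature in at least 1 library.

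For several class I members the unnumbered and the numbered feature gave different ratios. HDAC1 in HCT116 had 2288 (DMSO) and 749 (DAC+SB) counts in the unnumbered feature, at a log2 ratio of -0.92 (-1.05 to -0.81). The numbered one had 751 and 511, at 0.13 (-0.03 to 0.29). Its numbered share thus went from 24.7% to 40.6% of the gene's counts. The lower HDAC1 level in HCT116 lay in the unnumbered feature.

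HDAC2 showed the same split in both lines. Its unnumbered feature had 6027 and 4031 counts in the H1299 libraries and 3988 and 1454 in those of HCT116, log2 ratios of -0.53 (-0.59 to -0.47) and -0.77 (-0.86 to -0.68). The numbered feature went from 2501 to 2875 and from 2664 to 1707 counts, ratios of 0.25 (0.17 to 0.33) and 0.04 (-0.04 to 0.13). HDAC8 in HCT116 was at -1.20 (-1.45 to -0.95) in the unnumbered and -0.44 (-0.64 to -0.25) in the numbered feature. HDAC3 in HCT116 ran the other way, at -0.37 (-0.48 to -0.25) and -0.60 (-0.71 to -0.50).

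Both HDAC7 features were lower in HCT116, from 1001 to 79 counts in the unnumbered one (-2.98, -3.33 to -2.65) and from 135 to 16 in the numbered one (-2.39, -3.24 to -1.64). In H1299 HDAC7 was listed in the unnumbered feature alone. HDAC11 in H1299 was at 0.06 (-0.18 to 0.30) in the unnumbered feature and 1.36 (0.85 to 1.90) in the numbered one, which went from 45 to 112 counts. HDAC5 in H1299 was at 0.75 (0.62 to 0.87) and 0.17 (-0.15 to 0.49).

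A higher ratio in the numbered than in the unnumbered feature was common in these libraries. Over all genes with a numbered and an unnumbered feature, each listed with both treatments and at 100 counts or more in the higher library, the numbered ratio was above the unnumbered one in 62.6% of 6917 genes in H1299 and 71.8% of 7612 in HCT116, by a median of 0.14 and 0.32. Among members that met this minimum it was above in 6 of 7 in H1299 and 5 of 6 in HCT116, beyond counting error in 4 and 4. The share of all genes beyond counting error was not computed, so the 4 and 4 cannot be set against it. HDAC4 in H1299 was under the minimum, with 68 and 33 counts in its numbered feature, and its numbered ratio of -0.995 (-1.64 to -0.38) lay below the unnumbered one of -0.57 (-0.82 to -0.32). The difference was 0.78 (0.68 to 0.88) for HDAC2 in H1299, where 85.2% of genes had a smaller one, and 1.06 (0.85 to 1.26) for HDAC1 in HCT116, where 86.9% had a smaller one.

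**Figure D3:**
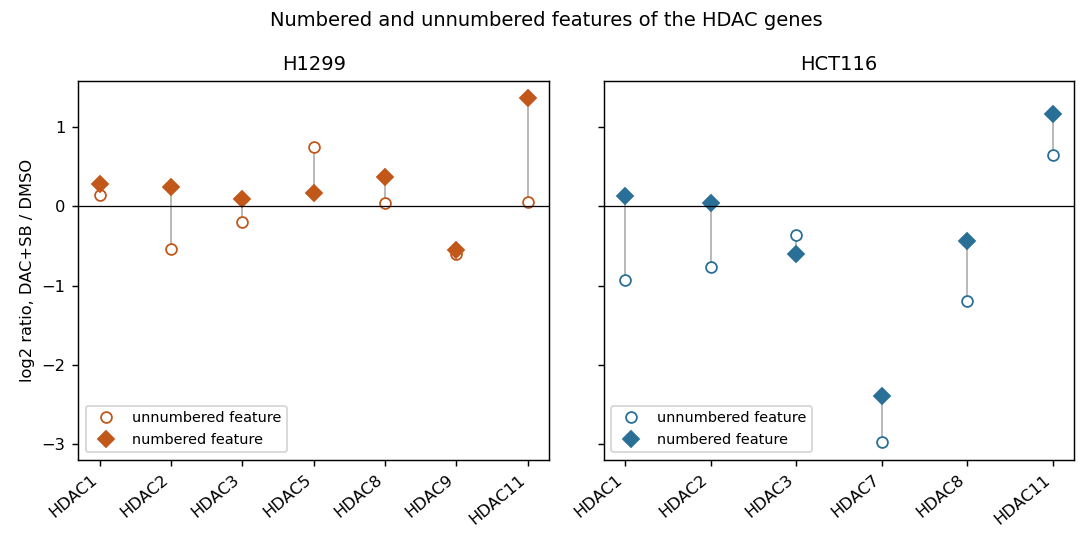
Log2 ratio of DAC+SB over DMSO in the unnumbered feature (open circles) and the numbered feature (filled diamonds) of each histone deacetylase gene with both listed in both libraries and at least 100 counts in the higher library of each feature, in H1299 (left) and HCT116 (right); lines join the 2 features of a gene. HDAC1 in HCT116 spans -0.92 to 0.13 and HDAC2 in HCT116 spans -0.77 to 0.04, while HDAC7 in HCT116 is far below 0 in both features.

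The share of cells with a count was compared after each cell was thinned to 3300 counts, which left out 402 shallower cells of HCT116 DAC+SB and none elsewhere. The intervals of these shares treat the cells of a library as independent and do not cover variation between libraries. A count of HDAC7 was found in 11.9% (10.8 to 13.0) of H1299 DMSO cells and 4.03% (3.42 to 4.71) of H1299 DAC+SB cells, and in 5.55% (4.83 to 6.34) and 0.611% (0.392 to 0.908) of HCT116 cells. Without thinning the shares were 40.4%, 17.1%, 22.7% and 1.99%. Fewer cells with HDAC7 RNA and less RNA per cell cannot be told apart at this depth. HDAC2 had a count in 34.9% (33.3 to 36.5) and 28.3% (26.9 to 29.8) of thinned H1299 cells and 27.4% (25.9 to 28.8) and 22.3% (21.0 to 23.6) of HCT116 cells.

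HDAC9 was found in 6.93% (6.12 to 7.81) and 4.88% (4.21 to 5.63) of thinned H1299 cells. In HCT116 it was found in 9 of 3658 DMSO cells, 0.246% (0.113 to 0.467), and 52 of 3925 DAC+SB cells, 1.32% (0.991 to 1.73). Without thinning, HDAC9 was found in 29.01% and 19.3% of H1299 cells and in 1.56% and 3.19% of HCT116 cells. These shares join all HDAC9 features. Of the 153 treated HCT116 counts before thinning, 43 and 48 lay in numbered features not listed in HCT116 DMSO. The unnumbered feature had 62 counts in each HCT116 library. HDAC6 in H1299 went from 3.91% to 4.59% of thinned cells while its CPM was lower, so no order was read from it. No cell type that lacks these genes was analysed here, so no share could be set against a background of free RNA.

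At least 1 class I count was found in 58.1% (56.5 to 59.7) of thinned H1299 DMSO cells, 55.7% (54.1 to 57.3) of H1299 DAC+SB cells, 52.7% (51.0 to 54.3) of HCT116 DMSO cells and 40.8% (39.2 to 42.3) of HCT116 DAC+SB cells. For class II the shares were 26.4% (24.97 to 27.9), 21.0% (19.7 to 22.3), 16.8% (15.6 to 18.0) and 11.0% (10.1 to 12.1). In the same thinned cells, counts of both classes were found in 15.2% and 12.1% of H1299 cells and 8.78% and 4.13% of HCT116 cells. Neither class had a count in 30.7% and 35.5% of H1299 cells and 39.3% and 52.3% of HCT116 cells.

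**Figure D4:**
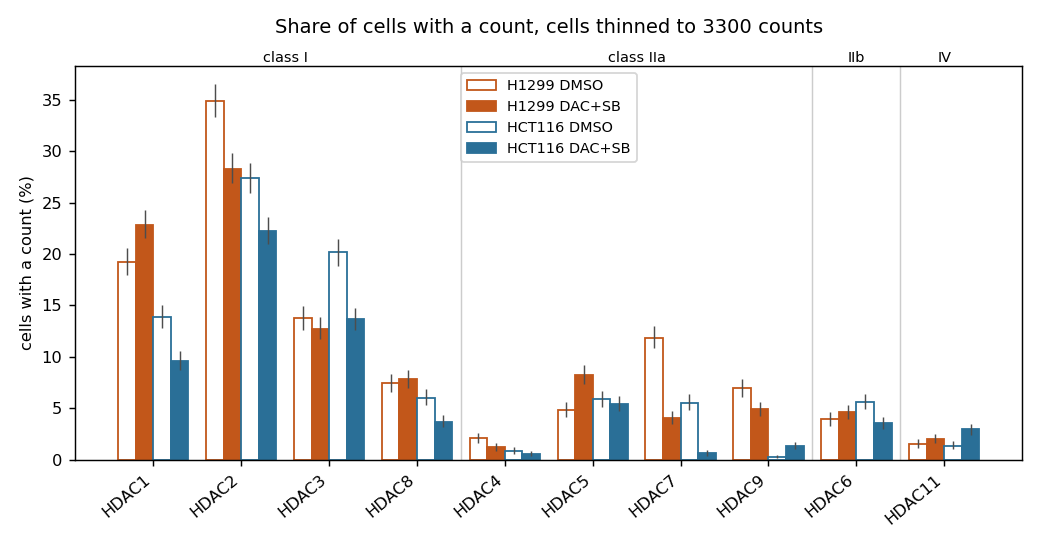
Share of cells with at least 1 count of each histone deacetylase gene after thinning every cell to 3300 counts, in percent, for the 4 libraries; bars start at 0 and error bars are exact 95% Clopper-Pearson intervals. HDAC7 goes from 11.9% to 4.03% in H1299 and from 5.55% to 0.611% in HCT116, the largest relative difference among the members in each line.

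The partner genes of the histone deacetylases were described from lists of complexes and related enzymes. Of 71 list genes with at least 100 counts in H1299, 3 were at least 2-fold higher and 7 lower with DAC+SB, where 18.3% and 7.34% of all genes were, with a median log2 ratio of -0.12 beside -0.07 over all genes. Of 72 in HCT116, 5 were higher and 23 lower, where 16.2% and 20.0% of all genes were, with a median of -0.47 beside -0.23. With TMM scaling, 3 were higher and 5 lower in H1299 (19.1% and 6.08% of all genes), against 7 and 15 for HCT116 (19.6% and 13.5%).

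Among the HDAC1 and HDAC2 complexes, the NuRD list of 9 genes (chromatin remodelling joined to deacetylation) had 0 higher and 3 lower in H1299 (CHD3, MBD3 and MTA1) and 0 higher and 5 lower in HCT116 (CHD3, CHD4, MTA1, MTA2 and MTA3), where 7.34% and 20.0% of all genes were lower. With TMM 2 and 4 were lower, beside 6.08% and 13.5% of all genes. Its medians were -0.69 and -1.18. MTA1, a scaffold that binds HDAC1 directly, was at 61.9, 25.4, 27.1 and 4.88 CPM in the order of libraries used above, log2 ratios of -1.28 (-1.37 to -1.20) and -2.47 (-2.70 to -2.25). The Sin3 list of 13 genes had 0 higher and 0 lower in H1299. In HCT116 it had 1 higher (ING1) and 2 lower (RBBP4 and RBBP7, histone chaperones that NuRD also holds). Of all genes, 18.3% were higher and 7.34% lower in H1299, and 16.2% and 20.0% in HCT116. With TMM the Sin3 list had 2 higher and 0 lower in HCT116, beside 19.6% and 13.5% of all genes. ING1 was at 1.69 in HCT116, or 0.63 over features listed in both libraries. The CoREST list of 9 genes had 1 higher (RCOR2, from 49 to 234 counts) and none lower in H1299, while in HCT116 none was higher, and PHF21A and ZMYM3 were lower, at log2 ratios of -1.49 (-1.71 to -1.28) and -2.27 (-2.53 to -2.02). In the MiDAC list, 3 of 4 genes were found, and 1 (TRERF1) was lower, in HCT116.

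For HDAC3, the NCoR/SMRT list of 5 genes had 0 past 2-fold in H1299 and 3 lower in HCT116 (NCOR1, TBL1X and TBL1XR1), or 2 lower with TMM, with medians of -0.56 and -1.09. Of all genes, 18.3% were higher and 7.34% lower in H1299. In HCT116 16.2% were higher and 20.0% lower, or 19.6% and 13.5% with TMM. NCOR1, a corepressor that activates HDAC3, had log2 ratios of -0.94 (-0.99 to -0.90) and -1.09 (-1.23 to -0.96) in the lines. For class IIa, the 4 MEF2 genes had 0 past 2-fold among 3 with enough counts in H1299. In HCT116 MEF2B was higher, at 2.52 from 28 to 100 counts, or -0.54 over features listed in both libraries. Among 7 14-3-3 genes SFN, which encodes 14-3-3 sigma, was higher in both lines. It had 13 and 1151 counts in the H1299 libraries, at a log2 ratio of 6.52 (5.74 to 7.43), or 5.81 over features listed in both. The HCT116 libraries had 3524 and 5478, at 1.32 (1.26 to 1.38). YWHAE, YWHAH and YWHAZ were lower by 2-fold or more in HCT116 and none of the list was in H1299. With TMM 0 of the list were lower by 2-fold in HCT116.

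The 7 sirtuins, deacetylases that need NAD and are not inhibited by hydroxamates, had 0 past 2-fold in H1299 and 1 higher (SIRT4) and 2 lower (SIRT3 and SIRT5) in HCT116, or 2 higher and 2 lower with TMM. Beside these counts, 18.3% of all genes were higher and 7.34% lower in H1299. In HCT116 16.2% of all genes were higher and 20.0% lower, or 19.6% and 13.5% with TMM. Of 11 histone acetyltransferases, which catalyse the opposite reaction, 0 were higher and 4 lower in H1299 (KAT2A, KAT2B, KAT6B and KAT8), and 0 higher and 3 lower in HCT116 (KAT2A, KAT6B and KAT8), beside 7.34% and 20.0% of all genes lower. Their medians were -0.57 and -0.72. With TMM 3 of them were lower in each line, beside 6.08% and 13.5% of all genes. Of the 4 BET genes, readers of acetylated histones, BRDT, normally a testis gene, had 0 and 4 counts with DMSO and 1719 and 1330 with DAC+SB in H1299 and HCT116. The listed DMSO counts lay in its unnumbered feature, and whether a numbered one had counts there is not known. Over the unnumbered feature alone the log2 ratio was at least 8.38 in H1299, with 3 counts as the floor of the DMSO library, and 8.10 in HCT116. BRD3 was lower by 2-fold or more in HCT116.

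**Figure D5:**
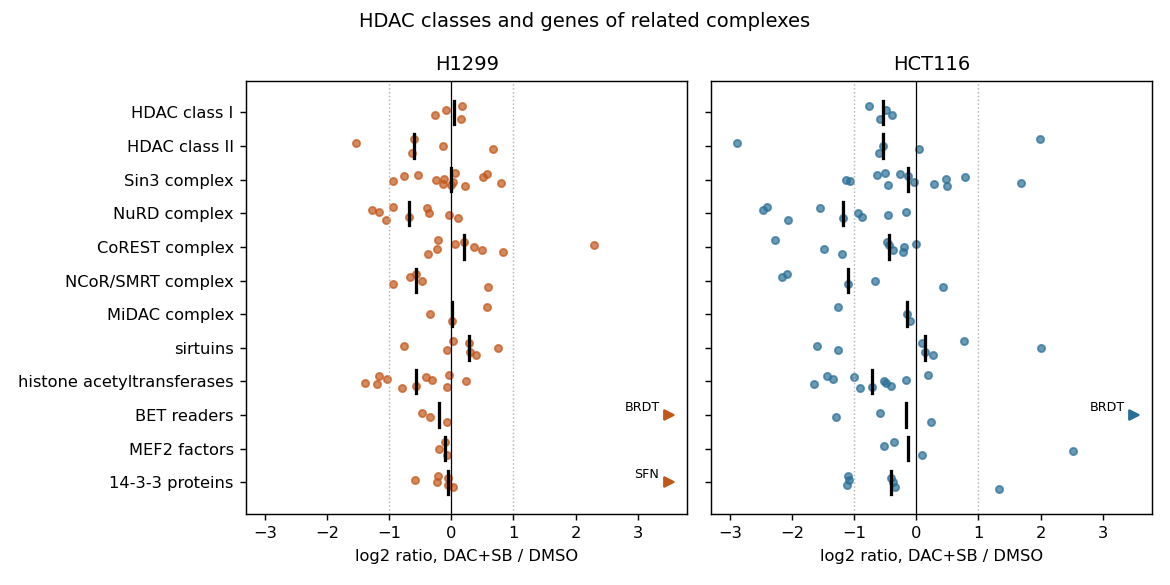
Log2 ratio of DAC+SB over DMSO of the class I and class II histone deacetylase genes and of the genes in 10 lists of related complexes and enzymes, in H1299 (left) and HCT116 (right); points are genes that reach 100 counts in the higher library, black bars are list medians, dotted lines mark 2-fold and triangles are genes beyond the axis. The NuRD list has the lowest median in both lines, -0.69 and -1.18.

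HDAC7 had the largest absolute ratio among members in both lines, and the genes most like it over the 4 libraries were NDST1, SMAGP and MTA1. Likeness was the distance between log2 CPM (1 added) after each gene was centred on its own mean, among 15504 genes, and with 4 libraries it is a description. NDST1, a heparan sulfate sulfotransferase gene, was at a distance of 0.161 with 35.1, 11.8, 14.9 and 2.34 CPM. SMAGP, a gene for a small membrane protein, was at 0.195 with 99.0, 41.2, 52.8 and 9.33 CPM, and MTA1 was at 0.245. All 3, chosen for their likeness to HDAC7 over these same libraries, shared its highest level in H1299 DMSO and its lowest in HCT116 DAC+SB.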

How the data were processed

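The authors deposited 1 table of whole-number counts for genes and 1 for transposable elements, in which only pairs of feature and cell with a count are listed. CASAVA, STAR and the build GRCh38 (hg38) are named in the submitters' processing notes with no role. The counting tool, the annotation, the filter on cells and the use of UMIs in counting are not given in the sources. Cells were assigned to libraries by the name each carries, and every cell passed a minimum of 500 counts. Doublets were not called, but the 5% of cells with most counts were left out as an alternative.

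Gene counts were summed per library and scaled to 1000000 gene plus element counts. Names that join several genes numbered 2419 of 43296 and hold 0 rows of the members. Called means at least 2-fold where the higher library has 100 counts or more. Alternatives used 1.5-fold, 4-fold, minimums of 1 and 1000 counts, other scalings, cells and features. Ratios carry exact conditional binomial intervals, levels exact Poisson and shares Clopper-Pearson intervals, all at 95%. Differences of log2 ratios use a normal approximation for log Poisson counts. Only the ratio, its interval and the 2-fold call were checked on simulated counts, with planted changes larger than 2-fold. Python 3.11.15, pandas 2.3.3, scipy 1.17.1 and, for TMM factors only, edgeR 4.0.16 in R 4.3.3 were used. Every column of per-sample values was used.

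The 10 members and all lists were chosen with earlier results of these data known. The genes named in a list are those past 2-fold or among the 4 with the largest absolute log2 ratio in it, and the 3 genes most like the member with the largest ratio. Protein sequences were not used here. The result of 1 gene of a list is not reported here.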

Additional observations from a re-analysis of the deposited data

Results flagged for a closer look

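For 3 members the treated library was higher in one line and lower in the other, beyond counting error in both, as it was for 13.98% of 12644 genes. With 1 library per group the difference between the lines was not tested. The log2 ratio in H1299 less that in HCT116 was 0.74 (0.63 to 0.85) for HDAC1, which was at 0.16 in H1299 and -0.58 in HCT116. It was 0.94 (0.76 to 1.11) for HDAC8, at 0.18 and -0.76. It was -2.59 (-3.03 to -2.15) for HDAC9, at -0.60 and 1.99. All 3 kept opposite signs in the lines under each alternative of scaling and cells run on single members. In HCT116 HDAC1 lay between -0.64 and -0.34, HDAC8 between -0.79 and -0.51 and HDAC9 between 0.69 and 2.24. The alternatives of features could not move HDAC1 or HDAC8. Taken alone, the numbered HDAC1 feature in HCT116 was at 0.13 (-0.03 to 0.29), the sign of HDAC1 in H1299, and the numbered HDAC8 feature at -0.44. The lowest HDAC9 value is that over features listed in both HCT116 libraries, where the difference between the lines was -1.28 (-1.80 to -0.76).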

How the results depend on the processing

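No paired analysis was possible because each group is 1 library, and for the same reason no library could be left out. In H1299 the class I log2 ratio of -0.07 was -0.027 with gene counts as the denominator, -0.0023 with TMM factors and -0.11 with median-of-ratios factors, and it turned to 0.087 without the member with most counts (HDAC2) and to 0.040 as the median of members. The H1299 class II ratio of -0.48 was -0.41 with TMM, -0.42 as a mean over cells, -0.24 in cells of 5000 to 15000 counts, -0.54 without HDAC6, -0.60 as the median of members and -0.060 without HDAC7, its member with most counts. The H1299 class difference of 0.41 was 0.19 in those cells, 0.15 without the member with most counts of each class, 0.47 without HDAC6, 0.64 between medians and -0.0094 without HDAC7 alone. In HCT116 class I, at -0.48, was -0.41 with gene counts, -0.24 with TMM, -0.44 with median-of-ratios factors, -0.56 without HDAC2 and -0.54 as the median. HCT116 class II, at -0.58, was -0.33 with TMM and -0.094 without HDAC7. The HCT116 difference of 0.10 was -0.47 without the member with most counts of each class and -0.39 without HDAC7 alone. The cells of 5000 to 15000 counts and class II without HDAC7 were chosen after seeing the data.

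At 1.5-fold, the numbers higher and lower were 1 and 3 in H1299, 2 and 3 for HCT116, beside 24.9%, 21.3%, 22.7% and 35.2% of all genes in that order. At 4-fold, H1299 had 0 members higher (11.0% of genes) and 0 lower (0.349%), and HCT116 had 0 higher (9.63%), where HDAC7 stayed lower by over 4-fold. In HCT116 TMM gave 2 higher (19.6% of genes), features listed in both libraries gave 0 and a minimum of 1000 counts gave 0. That minimum leaves out HDAC9 whatever its ratio, since its higher HCT116 library had 153 counts. The other 100 class values and counts under alternatives moved by less than counting error or, for counts, by 1.5 times at most. Among them, adding joined names could change nothing, since none holds a member. Another scaling could not move a class difference. Taking the features listed in both libraries could not move any H1299 value or the HCT116 class I ratio. Of the single-member values 18 moved beyond counting error and 182 did not. Many of the latter could not move, since joined names hold no member. Features listed in both libraries could change only HDAC4, HDAC5 and HDAC9 in HCT116. With TMM in HCT116, HDAC1 was at -0.34, HDAC2 at -0.14, HDAC3 at -0.25, HDAC6 at -0.29, HDAC8 at -0.51, HDAC5 at 0.29 and HDAC11 at 1.11. Signs were kept except for HDAC5 in HCT116, which was at -0.01 without cells over 25% mitochondrial and at 0.60 over features listed in both libraries. Apart from settings that leave out members or counts by construction, the cause of these moves was not tested. Depth limits HDAC9 and HDAC4 in HCT116 most, with 62 and 57 counts in the lower library. The shares of cells with a count move with the depth of thinning by construction.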

Other observations

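HDAC10, the other class IIb gene, is not among the 10 members, and the deposited table also has a name that joins it to MAPK12. Under its own name it had 278 (DMSO) and 137 (DAC+SB) counts in H1299, 164 and 60 in HCT116, or 4.31, 2.19, 2.62 and 1.54 CPM. The joined name had 1084, 646, 1092 and 481 counts, or 16.8, 10.3, 17.4 and 12.4 CPM, and these cannot be assigned to either gene. The treated library was the lower one in both lines under both names.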
